A study of Mus musculus with 8 samples.

Results

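The 45 genes described here encode the machinery of DNA replication and cell division: 12 genes of replication licensing and the replicative helicase, 8 of the sliding clamp, its loader and the replicative polymerases, 4 of nucleotide synthesis, 2 S phase regulators, 6 G1 cyclins and kinases, 11 genes of G2 and mitosis, and 2 inhibitors of cyclin-dependent kinases (CDK). They were chosen by gene symbol from the platform annotation, out of 16593 genes that the array names, and each gene was represented by its brightest probe. The choice was made with earlier results of these data known, so the shares set beside those of all genes are descriptive. Of the 45, 33 had a probe above background and were tested, 5 lay below background (Pola1, Pole, Ccna2, Ccnb2 and Bub1), and 7 had no probe named here (Gins1, Gins2, Rfc3, Cdk4, Ccnb1, Mki67 and Aurkb).

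The samples were peritoneal macrophages of C57BL/6 mice, profiled on Illumina Mouse Ref-8 bead arrays, with 8 arrays in 4 groups of 2. The groups were wild-type cells (WT) left unstimulated, WT cells given recombinant interleukin-4 (IL-4) at 10 ng/ml for 6 h, cells of a line labelled as a knockout of the Fc gamma chain (KO) left unstimulated, and KO cells given the same IL-4. The Fc gamma chain, encoded by Fcer1g, is the signalling subunit shared by activating Fc receptors. All 4 groups, the controls included, had adhered overnight in medium with 10% fetal bovine serum and 15% L929 cell supernatant, which contains the growth factor M-CSF, and cells still afloat had been removed. The comparisons ask how IL-4 changed expression in each genotype and how the genotypes differed in each condition. No label says which animal a sample came from, so the p-values rest on the spread within pairs of arrays alone, and that spread may be technical.

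Before S phase, CDC6 and CDT1 load a ring of the minichromosome maintenance (MCM) proteins Mcm2 to Mcm7 onto replication origins, and CDC45 with the GINS complex later turns that ring into the active helicase. Cyclins of the D type with CDK4 or CDK6 release E2F factors from the retinoblastoma protein, E2F factors then drive the genes of replication and nucleotide synthesis, and mitotic genes follow under other promoter elements. Macrophages of the peritoneal cavity can renew themselves by division in the tissue, and IL-4 is known to drive such division in the mouse.

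Promoters are shown for the members with the largest mean IL-4 response among those past the test in their role (3 for licensing, 1 for each other role). In that response 16 of 33 tested members rose (48.5%, against 13.5% of all genes) and 3 fell (9.09%, against 15.7%). Ccnd2, from the G1 role, is named only. The sequences are from RefSeq (GRCm38.p6) and run 5′ to 3′ from 250 bases before to 50 bases after the annotated start. A promoter entry was matched by symbol for 36 of the 45 members. Capitals mark the E2F motif (TTTCCCGC, TTTCGCGC, TTTGCCGC or TTTGGCGC) and the cell cycle homology element TTTGAA or TTTAAA, each searched on both strands, so that a match on the other strand appears as its reverse complement. In the licensing role, Mcm5 (chr8:75109259-75109558, plus strand) held 2 overlapping E2F matches and 1 homology element, Mcm2 (chr6:88898731-88899030, minus strand) held 1 homology element, and Mcm6 (chr1:128359656-128359955, minus strand) held 3 E2F matches, of which 2 overlap.
Mcm5: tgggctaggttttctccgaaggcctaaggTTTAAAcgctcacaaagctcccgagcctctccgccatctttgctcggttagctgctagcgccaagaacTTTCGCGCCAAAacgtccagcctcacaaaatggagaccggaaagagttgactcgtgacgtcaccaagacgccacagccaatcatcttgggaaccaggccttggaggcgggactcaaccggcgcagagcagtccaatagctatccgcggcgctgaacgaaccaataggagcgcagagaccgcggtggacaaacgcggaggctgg
Mcm2: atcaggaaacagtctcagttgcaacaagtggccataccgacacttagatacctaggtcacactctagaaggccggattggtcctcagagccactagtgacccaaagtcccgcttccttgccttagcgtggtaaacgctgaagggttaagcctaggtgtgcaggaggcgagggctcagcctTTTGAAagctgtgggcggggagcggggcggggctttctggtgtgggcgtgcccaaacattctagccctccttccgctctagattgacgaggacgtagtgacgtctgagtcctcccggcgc
Mcm6: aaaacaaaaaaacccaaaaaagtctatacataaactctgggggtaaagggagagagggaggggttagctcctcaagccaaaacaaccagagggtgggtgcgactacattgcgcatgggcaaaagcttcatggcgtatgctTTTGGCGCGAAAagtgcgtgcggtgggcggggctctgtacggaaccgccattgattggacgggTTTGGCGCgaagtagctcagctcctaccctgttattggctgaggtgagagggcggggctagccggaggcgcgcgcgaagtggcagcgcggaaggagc

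Of the other roles, Uhrf1 (chr17:56304063-56304362, plus strand, the entry with more E2F matches of 2) held 1 E2F match and 1 homology element, and Cdk1 (chr10:69352863-69353162, minus strand) held 1 E2F match and 2 homology elements. Rfc5 (chr5:117388974-117389273, minus strand) and Cdkn1a (chr17:29090729-29091028, plus strand, 1 of 2 entries) held no match of either motif in this window. The promoter of Tk1 (chr11:117825965-117826264, minus strand) is shown because Tk1, whose mean response was the largest in size among the nucleotide synthesis members past the test, moved down, and it held 1 homology element.
Uhrf1: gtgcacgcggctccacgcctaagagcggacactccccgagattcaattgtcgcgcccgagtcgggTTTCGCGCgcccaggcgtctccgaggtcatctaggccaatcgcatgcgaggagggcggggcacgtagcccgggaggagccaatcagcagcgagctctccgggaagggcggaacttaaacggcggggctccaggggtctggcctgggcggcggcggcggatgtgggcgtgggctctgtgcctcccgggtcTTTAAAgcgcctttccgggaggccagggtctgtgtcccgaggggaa
Cdk1: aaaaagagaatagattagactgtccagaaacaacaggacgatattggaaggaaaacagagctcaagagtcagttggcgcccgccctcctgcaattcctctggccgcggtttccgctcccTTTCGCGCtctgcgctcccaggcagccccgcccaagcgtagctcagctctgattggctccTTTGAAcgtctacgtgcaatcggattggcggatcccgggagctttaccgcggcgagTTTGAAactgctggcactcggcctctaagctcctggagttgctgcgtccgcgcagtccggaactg
Rfc5: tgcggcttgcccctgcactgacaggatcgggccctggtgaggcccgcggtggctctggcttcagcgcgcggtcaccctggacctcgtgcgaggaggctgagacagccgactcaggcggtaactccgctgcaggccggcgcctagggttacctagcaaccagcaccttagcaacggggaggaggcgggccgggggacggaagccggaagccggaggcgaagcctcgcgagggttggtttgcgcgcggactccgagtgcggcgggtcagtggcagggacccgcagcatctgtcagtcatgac
Cdkn1a: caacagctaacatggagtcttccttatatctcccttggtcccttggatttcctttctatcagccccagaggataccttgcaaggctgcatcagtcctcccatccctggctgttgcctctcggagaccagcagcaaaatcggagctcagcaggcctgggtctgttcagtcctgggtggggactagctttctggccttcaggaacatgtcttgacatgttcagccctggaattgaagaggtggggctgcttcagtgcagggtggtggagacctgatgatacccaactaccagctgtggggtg
Tk1: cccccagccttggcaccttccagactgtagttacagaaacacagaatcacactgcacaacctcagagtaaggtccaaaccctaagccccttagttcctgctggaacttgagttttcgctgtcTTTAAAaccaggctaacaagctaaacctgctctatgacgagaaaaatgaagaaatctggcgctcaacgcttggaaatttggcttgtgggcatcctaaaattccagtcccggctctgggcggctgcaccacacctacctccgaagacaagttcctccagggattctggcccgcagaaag

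The E2F motif was present in the promoters of 12 of 36 members (33.3%), against 704 of 27025 genes with a promoter entry (2.6%). By role, it was present in 6 of 9 licensing promoters and 3 of 6 clamp and polymerase promoters, and in 1 of 9 promoters of G2 and mitosis. It was present in 0 of 4 nucleotide synthesis promoters, 1 of 2 of the S phase regulators, 1 of 4 of the G1 role and 0 of 2 of the CDK inhibitors. Between licensing and mitosis the homology element was distributed the other way: it was present in 8 of 9 promoters of G2 and mitosis (88.9%), in 3 of 9 licensing promoters and in 30.6% of all genes. Among nucleotide synthesis promoters it was present in 2 of 4. A STAT6 motif (TTCNNNNGAA, both strands), for the factor that IL-4 activates, was present in 2 of 36 member promoters (5.6%) and in 8.0% of all genes. These are descriptions of the letters in the window, with no test.

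Arrays of one group correlated at r = 0.994 to 0.995 over the 9786 genes tested, and arrays of different groups at 0.969 to 0.988. Fcer1g had an intensity of 12988 on both WT unstimulated arrays, 9915 and 10170 on the WT IL-4 arrays, and 85.7 to 91.8 on the 4 KO arrays, where it was not above the background limit of 93.2 to 93.4. Of 8 macrophage markers, 6 had a probe and all 6 were above background, among them Adgre1, Itgam, Mertk and Lyz2. In each genotype, 2 of the 6 fell with IL-4 (33.3%, against 8.68% of all genes in WT and 9.94% in KO), and 0 rose. Of other cell types, B cell markers summed to 2185 to 3718 intensity units over the arrays, and mast cell markers to 1174 to 1795. Of 6 tested B cell markers, 2 fell with IL-4 in each genotype (33.3%) and 0 rose, with lowest values of -1.23 in WT and -1.78 in KO. Of 5 mast cell markers, 1 rose in each genotype (20%, against 7.87% and 9.45%) and 0 fell. T and NK cell markers summed to 917 to 1193 over 9 probes, of which 5 were above background. With IL-4, 2 of the 5 fell in WT (40%) and 0 in KO, and 0 rose. Of those 5, the T cell receptor genes Cd3d and Cd3e were higher in KO than in WT when both had IL-4, by 1.20 ± 0.19 (adjusted p = 0.00148) and 0.79 ± 0.15 (adjusted p = 0.00765). Cd3d had 129 and 120 on those WT arrays and 205 and 196 on those KO arrays. Only 1 of 3 monocyte markers and 3 of 4 eosinophil markers had a probe, and none of these was above background on both arrays of a group. Large peritoneal macrophage markers summed to 4423 to 4679 in the WT groups and to 8040 to 10107 in the KO groups, and most of that difference came from Vsig4 (2807 and 2494 in unstimulated WT, 8006 and 6936 in unstimulated KO). Gata6 and Selp were also higher in KO in both conditions, whereas Icam2 (0.23, adjusted p = 0.585) and Timd4 (-0.52, adjusted p = 0.229) did not pass between the unstimulated groups. With IL-4, 2 of 5 tested large peritoneal macrophage markers rose in each genotype (40%), and 0 fell in WT and 1 in KO. Of the neutrophil markers, S100a8 fell with IL-4 (2181 and 1901 to 925 and 1080 in WT, 1436 and 1305 to 830 and 1059 in KO), and S100a9 was below background on all 8 arrays. Of 3 tested neutrophil markers, 2 fell in WT (66.7%) and 1 in KO (33.3%). Fewer cells of a type and less RNA per cell cannot be told apart in bulk samples, and the part of other cells in the results below was not tested.

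Values are normalized intensities on a linear scale, with array 1 and array 2 of a group in that order. Differences are on the log2 scale after background correction, which enlarges the change of dim genes, so the ratio of the deposited intensities is given beside the main ones of the members. For genes of the further lists no ratio is given, and their log2 values can exceed the change in deposited intensity. Probes differ in their response, so the level of one gene is not set against that of another. The test was limma's moderated test over 9786 genes, with a threshold of 0.05 on the Benjamini-Hochberg adjusted p. The mean IL-4 response is the mean of the WT and KO responses, over 4 arrays with IL-4 and 4 without.

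Mcm2, Mcm4, Mcm5 and Mcm6, of the MCM ring, rose with IL-4 in both genotypes, as did Uhrf1 and Cdkn1a. In WT, 7 of 33 tested members rose (21.2%, against 7.87% of all genes tested) and 2 fell (6.06%, against 8.68%). In KO, 13 rose (39.4%, against 9.45%) and 0 fell in the limma fit (against 9.94%), with 0 lower at an unadjusted p under 0.05 as well. For the mean response, 16 members rose (48.5%, against 13.5%) and 3 fell (9.09%, against 15.7%). The median difference over the 33 members was 0.24 in WT and 0.27 in KO, beside -0.02 and -0.01 over all genes. Without WT unstimulated array 1 the WT median was 0.11. Each fit without 1 array left a group with 1 array, and IL-4 increases over all genes were also fewer in it than in the full fit. The 7 increases in WT became 3 without WT unstimulated array 1 or without WT IL-4 array 2, and the 13 in KO became 6 without KO unstimulated array 1 or without KO IL-4 array 2. The 3 decreases in the mean response, those of Tk1, Cdk2 and Ccnd3, became 0 with the mean of each gene's probes or without WT IL-4 array 1, and 1 without WT unstimulated array 2, KO unstimulated array 2 or either KO IL-4 array. Among the 33, 30 were above background on all 8 arrays. Cdc6 was above on 7, Rrm2 on 7 and Cdkn1b on 6, and none of these 3 passed in any comparison.

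**Figure D1:**
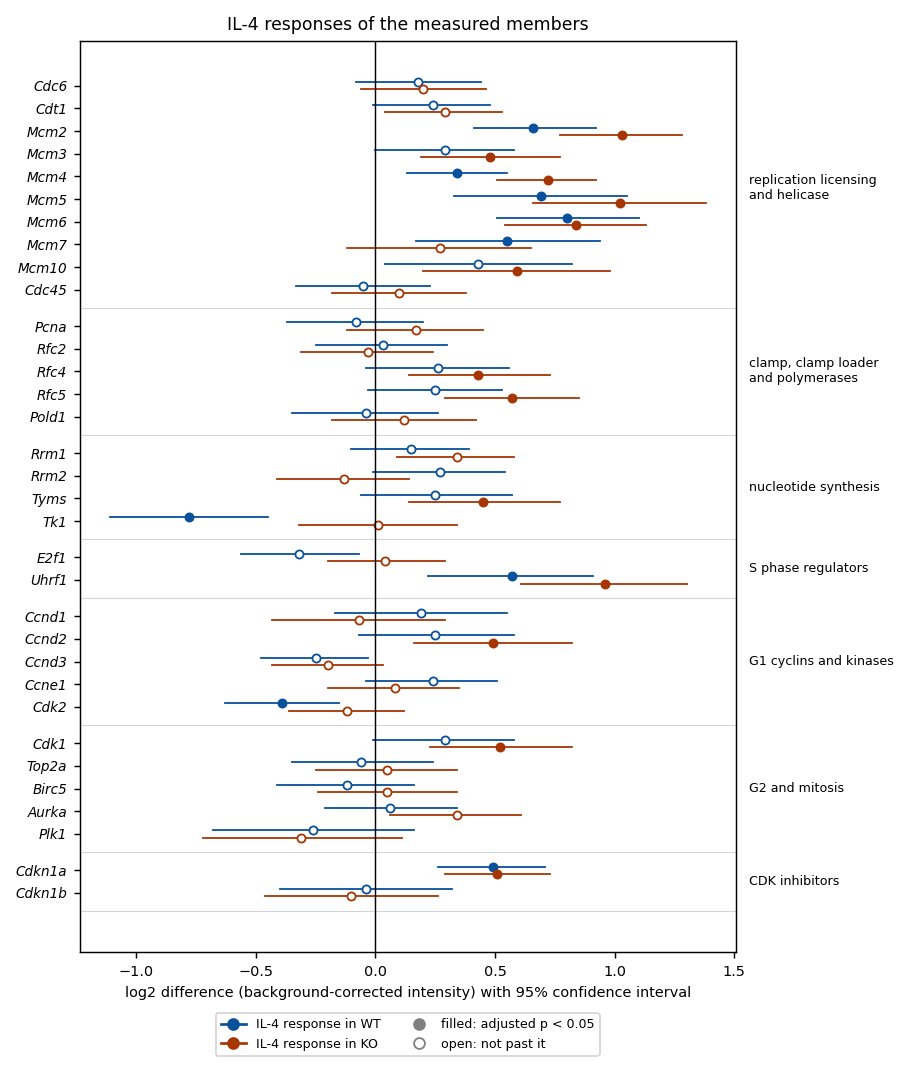
The IL-4 response of each tested member in WT and KO, as a log2 difference of background-corrected intensity (x axis) with its 95% confidence interval, by role. Filled points have an adjusted p under 0.05: 7 increases and 2 decreases in WT, and 13 increases in KO.

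Of the 10 tested licensing and helicase genes, 8 rose in the mean response (80%, against 13.5% of all genes) and 0 fell (against 15.7%). Their median was 0.46, beside -0.02 over all genes. The 5 largest changes among them were those of Mcm5, Mcm2, Mcm6, Mcm4 and Mcm10. Mcm2, a subunit of the helicase ring, had intensities of 146 and 153 in unstimulated WT, 198 and 198 in WT with IL-4, 156 and 153 in unstimulated KO, and 236 and 257 in KO with IL-4. Both IL-4 groups lay above both unstimulated groups, and KO with IL-4 was highest. The difference was 0.66 ± 0.12 (SE) in WT (adjusted p = 0.00175, intensity ratio 1.33) and 1.03 ± 0.12 in KO (adjusted p = 4.75e-05, ratio 1.60).

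Mcm5, another ring subunit, had 267 and 354 in unstimulated WT, 415 and 501 in WT with IL-4, 281 and 340 in unstimulated KO, and 564 and 557 in KO with IL-4. The unstimulated duplicates were spread widely, yet no unstimulated array reached an IL-4 array. Its difference was 0.69 ± 0.17 in WT (adjusted p = 0.0114, ratio 1.47) and 1.02 ± 0.17 in KO (adjusted p = 0.000704, ratio 1.80). The WT call ended without WT unstimulated array 1 (0.43, adjusted p = 0.138) and without WT IL-4 array 2 (0.53, adjusted p = 0.118), while the KO call held under each of 18 alternative settings.

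Mcm6, also of the ring, had 185 and 210 in unstimulated WT, 274 and 316 in WT with IL-4, 253 and 245 in unstimulated KO, and 425 and 365 in KO with IL-4. The 4 groups did not overlap, with KO above WT in each condition. The IL-4 difference was 0.80 ± 0.14 in WT (adjusted p = 0.00125, ratio 1.50) and 0.84 ± 0.14 in KO (adjusted p = 0.000707, ratio 1.59). Its other bright probes gave 0.58 and 0.39 in WT and 0.85 and 1.12 in KO.

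Mcm4, a further ring subunit, had 510 and 498 in unstimulated WT, 617 and 624 in WT with IL-4, 507 and 547 in unstimulated KO, and 811 and 836 in KO with IL-4. The unstimulated groups overlapped and the IL-4 groups did not. The difference was 0.34 ± 0.10 in WT (adjusted p = 0.0263, ratio 1.23) and 0.72 ± 0.10 in KO (adjusted p = 0.000155, ratio 1.56). The WT call ended without any 1 of the 4 WT arrays (0.32 to 0.36, adjusted p = 0.0741 to 0.123).

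Mcm3 and Mcm7, the other ring subunits, had smaller differences. Mcm3 had 140 and 134 in unstimulated WT, 147 and 158 in WT with IL-4, 132 and 146 in unstimulated KO, and 170 and 165 in KO with IL-4. It passed in KO (0.48 ± 0.13, adjusted p = 0.0221) and in the mean response (0.39 ± 0.09, adjusted p = 0.00717), and its WT value was 0.29 ± 0.13 (adjusted p = 0.171). The KO call ended without KO unstimulated array 1 (0.35, adjusted p = 0.187), KO IL-4 array 1 (0.44, adjusted p = 0.11) or KO IL-4 array 2 (0.52, adjusted p = 0.0693). Mcm7 lay close to background, with 97.1 and 101 in unstimulated WT, 111 and 119 in WT with IL-4, 95.1 and 110 in unstimulated KO, and 106 and 113 in KO with IL-4. Its WT groups did not overlap and its KO groups did. It passed in WT (0.55 ± 0.18, adjusted p = 0.0498, ratio 1.16) and in the mean response (0.41 ± 0.13, adjusted p = 0.0254, ratio 1.11). The WT call ended without any 1 of the 4 WT arrays (0.44 to 0.66, adjusted p = 0.0722 to 0.257), and the mean call without any of WT unstimulated array 1, WT IL-4 array 2, KO unstimulated array 1 and KO IL-4 array 2 (0.26 to 0.36, adjusted p = 0.0885 to 0.121).

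Mcm10, which joins the helicase to the polymerase machinery, had 94.3 and 111 in unstimulated WT, 110 and 119 in WT with IL-4, 104 and 103 in unstimulated KO, and 122 and 124 in KO with IL-4. It passed in KO (0.59 ± 0.18, adjusted p = 0.0366, ratio 1.18) and in the mean response (0.51 ± 0.13, adjusted p = 0.00838), and the KO call ended without any 1 of the 4 KO arrays (0.55 to 0.62, adjusted p = 0.0907 to 0.151). Cdt1, the loading factor, had 417 and 445 in unstimulated WT, 476 and 517 in WT with IL-4, 555 and 482 in unstimulated KO, and 651 and 583 in KO with IL-4. The WT groups did not overlap and neither did the KO groups, but only the mean response passed (0.26, adjusted p = 0.0268), and that call ended without any of WT unstimulated array 1, WT IL-4 array 2, KO unstimulated array 2 and KO IL-4 array 1 (0.20 to 0.23, adjusted p = 0.0846 to 0.117). Cdc6, the other loader, had 92.5 to 104 over the 8 arrays, and Cdc45, of the active helicase, had 95.9 to 103. Neither passed in any comparison, with mean responses of 0.19 (95% interval 0.01 to 0.38) and 0.03 (-0.17 to 0.22).

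**Figure D2:**
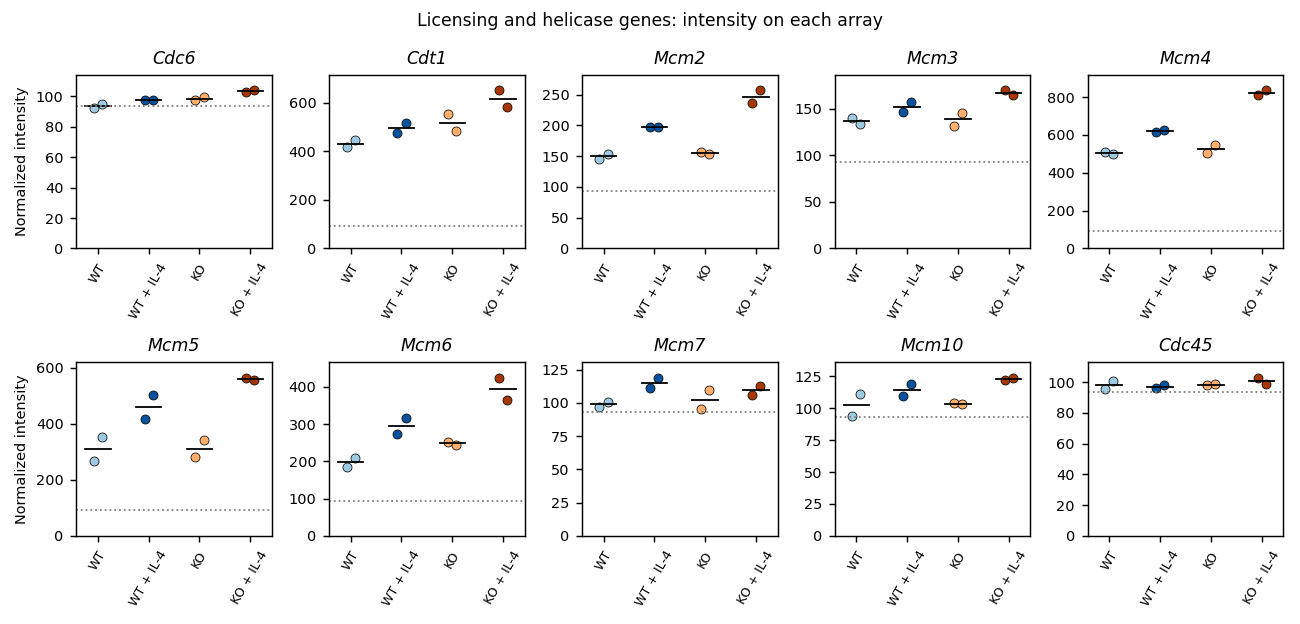
Normalized intensity (y axis, linear, from 0) of the 10 tested licensing and helicase genes on each array, by group. Points are arrays, bars are group means of 2 arrays, and the dotted line is the background limit. The group mean was highest in KO with IL-4 for every gene but Mcm7. With IL-4, only Mcm2, Mcm4 and Mcm6 passed the test of KO against WT. Cdc6, Cdc45, Mcm7 and Mcm10 lay close to the limit.

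Of the clamp, clamp loader and polymerase genes, 5 were tested and 2 rose in the mean response (40%, against 13.5% of all genes). Both are subunits of replication factor C, which loads the clamp. Rfc5 had 159 and 154 in unstimulated WT, 174 and 173 in WT with IL-4, 146 and 150 in unstimulated KO, and 175 and 201 in KO with IL-4, so that all IL-4 arrays lay above all unstimulated ones. It passed in KO (0.57 ± 0.13, adjusted p = 0.00723, ratio 1.27) and in the mean response (0.41 ± 0.09, adjusted p = 0.00386), with 0.25 ± 0.13 in WT (adjusted p = 0.223). The KO call ended without KO unstimulated array 1 (0.54, adjusted p = 0.0515) or KO IL-4 array 2 (0.41, adjusted p = 0.1).

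Rfc4 had 127 and 117 in unstimulated WT, 135 and 132 in WT with IL-4, 125 and 134 in unstimulated KO, and 147 and 158 in KO with IL-4. It passed in KO (0.43 ± 0.14, adjusted p = 0.0422) and in the mean response (0.35 ± 0.10, adjusted p = 0.0158). Its other probe above background gave -0.06 in KO, and with the mean of its probes both calls ended (0.18 in KO, adjusted p = 0.342, and 0.12 for the mean, adjusted p = 0.356). Leaving out any 1 of the 6 arrays other than unstimulated WT also ended the KO call (0.34 to 0.53, adjusted p = 0.0527 to 0.246). The mean call ended without any of WT unstimulated array 2, WT IL-4 array 1, KO unstimulated array 1 and KO IL-4 array 2 (0.28 to 0.33, adjusted p = 0.0504 to 0.0677). Pcna, the clamp itself, stayed between 97.9 and 109 with a mean response of 0.04 (95% interval -0.16 to 0.25). Rfc2, a further loader subunit, had 528 to 645 and a mean response of 0.00 (-0.20 to 0.19), and Pold1, the catalytic subunit of polymerase delta, had 289 to 371 and 0.04 (-0.18 to 0.25). The catalytic subunits of polymerases alpha and epsilon, Pola1 (85.6 to 92.2) and Pole (87.6 to 97.9), were below background by the rule used.

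The 4 nucleotide synthesis members did not move together: in the mean response 2 rose (50%, against 13.5% of all genes) and 1 fell (25%, against 15.7%). Rrm1, the large subunit of ribonucleotide reductase, had 184 and 192 in unstimulated WT, 202 and 199 in WT with IL-4, 185 and 184 in unstimulated KO, and 213 and 219 in KO with IL-4. All IL-4 arrays lay above all unstimulated arrays, and the mean response was 0.24 ± 0.08 (adjusted p = 0.0348), a call that ended without any 1 of the 7 arrays other than WT unstimulated array 2 (0.22 to 0.26, adjusted p = 0.0626 to 0.104). Rrm2, the small subunit, had 93.1 to 102 and a mean response of 0.07 (95% interval -0.13 to 0.26).

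Tyms, thymidylate synthase, had 185 and 183 in unstimulated WT, 199 and 215 in WT with IL-4, 171 and 212 in unstimulated KO, and 229 and 243 in KO with IL-4. It passed in KO (0.45 ± 0.15, adjusted p = 0.045) and in the mean response (0.35 ± 0.10, adjusted p = 0.0198). Its second probe above background on all arrays gave -0.27 in KO, and with the mean of its probes the values were 0.05 in KO (adjusted p = 0.793) and 0.06 for the mean (adjusted p = 0.62). The KO call also ended without any 1 of the 7 arrays other than KO unstimulated array 2 (0.22 to 0.51, adjusted p = 0.0525 to 0.403), and the mean call without array 2 of either WT group, KO unstimulated array 1 or KO IL-4 array 2 (0.24 to 0.35, adjusted p = 0.0557 to 0.0915).

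Tk1, the thymidine kinase of the salvage pathway, was high in 1 group only, with 130 and 151 in unstimulated WT, 106 and 111 in WT with IL-4, 104 and 106 in unstimulated KO, and 108 and 102 in KO with IL-4. Unstimulated WT lay above the 3 other groups, whose 6 arrays ran from 102 to 111. It fell with IL-4 in WT (-0.78 ± 0.15, adjusted p = 0.00306, ratio 0.775) and gave 0.01 ± 0.15 in KO (adjusted p = 0.979). Unstimulated KO was lower than unstimulated WT (-0.91 ± 0.15, adjusted p = 0.00254, ratio 0.749), a call that held under each of 18 alternatives but shrank to -0.41 with the mean of the probes. The fall in the mean response (-0.39 ± 0.11, adjusted p = 0.0148) ended without WT unstimulated array 2 (-0.28, adjusted p = 0.0691), WT IL-4 array 1 (-0.35, adjusted p = 0.0538) or KO IL-4 array 2 (-0.33, adjusted p = 0.0606). The 2 other Tk1 probes, of 88.6 to 101 and 85.1 to 96.8, gave -0.06 and -0.01 for IL-4 in WT, and -0.27 and -0.15 for the unstimulated genotype difference. With the mean of the probes the WT response was -0.28 (adjusted p = 0.106) and the mean response -0.11 (adjusted p = 0.332).

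Of the S phase regulators, Uhrf1, which guides maintenance methylation to newly replicated DNA, had 138 and 166 in unstimulated WT, 178 and 209 in WT with IL-4, 141 and 142 in unstimulated KO, and 208 and 218 in KO with IL-4. No unstimulated array reached an IL-4 array. It rose in WT (0.57 ± 0.16, adjusted p = 0.0274, ratio 1.27) and in KO (0.96 ± 0.16, adjusted p = 0.000899, ratio 1.50). The WT call ended without WT unstimulated array 1 (0.33, adjusted p = 0.263) or WT IL-4 array 2 (0.39, adjusted p = 0.242). E2f1, an activating E2F factor, had 261 and 272 in unstimulated WT, 216 and 238 in WT with IL-4, 210 and 214 in unstimulated KO, and 217 and 216 in KO with IL-4. As for Tk1, unstimulated WT was the highest group. Its IL-4 response was -0.32 ± 0.11 in WT (adjusted p = 0.0809) and 0.04 ± 0.11 in KO (adjusted p = 0.837).

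The G1 cyclins and kinases split. Ccnd2, a D-type cyclin, had 123 and 113 in unstimulated WT, 135 and 122 in WT with IL-4, 106 and 110 in unstimulated KO, and 121 and 130 in KO with IL-4. It rose in KO (0.49 ± 0.15, adjusted p = 0.0387, ratio 1.16) and in the mean response (0.37 ± 0.11, adjusted p = 0.0189). The KO call ended without KO unstimulated array 1 (0.42, adjusted p = 0.192), KO unstimulated array 2 (0.55, adjusted p = 0.0845) or KO IL-4 array 2 (0.38, adjusted p = 0.238), and the mean call without WT unstimulated array 2, WT IL-4 array 1, KO unstimulated array 1 or KO IL-4 array 2 (0.29 to 0.34, adjusted p = 0.067 to 0.0845).

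Ccnd3, another D-type cyclin, had 599 and 655 in unstimulated WT, 527 and 545 in WT with IL-4, 684 and 784 in unstimulated KO, and 656 and 636 in KO with IL-4. It fell in the mean response alone (-0.23 ± 0.07, adjusted p = 0.0353), a call that ended without any 1 of the 6 arrays other than unstimulated array 1 of each genotype (-0.24 to -0.17, adjusted p = 0.0633 to 0.147) and with the mean of its probes (-0.07, adjusted p = 0.522). Cdk2, the kinase partner of cyclins E and A, had 487 and 449 in unstimulated WT, 359 and 386 in WT with IL-4, 419 and 462 in unstimulated KO, and 397 and 425 in KO with IL-4. The WT groups did not overlap and the KO groups did. It fell in WT (-0.39 ± 0.11, adjusted p = 0.026, ratio 0.796) and in the mean response (-0.25 ± 0.08, adjusted p = 0.0244), with -0.12 ± 0.11 in KO (adjusted p = 0.522). The WT call ended without WT unstimulated array 1 (-0.32, adjusted p = 0.156), WT IL-4 array 1 (-0.33, adjusted p = 0.162) or WT IL-4 array 2 (-0.45, adjusted p = 0.0574), and with the mean of its probes (-0.19, adjusted p = 0.245). The mean call ended without array 1 of either WT group, KO unstimulated array 2 or KO IL-4 array 1 (-0.23 to -0.21, adjusted p = 0.0813 to 0.0988). Ccne1, cyclin E1, had 100 to 111 and a mean response of 0.16 (95% interval -0.04 to 0.35).

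In the G2 and mitosis role, 5 of 11 genes were above background and 1 of these rose in the mean response (20%, against 13.5% of all genes). Their median mean response was -0.01. Cdk1, the mitotic kinase, had 99.7 and 105 in unstimulated WT, 107 and 114 in WT with IL-4, 102 and 105 in unstimulated KO, and 118 and 122 in KO with IL-4. All IL-4 arrays lay above all unstimulated arrays, within a narrow range close to the background limit. It passed in KO (0.52 ± 0.14, adjusted p = 0.0154, ratio 1.16) and in the mean response (0.41 ± 0.10, adjusted p = 0.00583), and the KO call ended without KO unstimulated array 1 (0.46, adjusted p = 0.106) or KO IL-4 array 2 (0.47, adjusted p = 0.104). The 4 others lay near background as well and did not pass: Top2a (topoisomerase II alpha, 101 to 111), Birc5 (survivin, 100 to 111), Aurka (Aurora kinase A, 101 to 116) and Plk1 (Polo-like kinase 1, 99.2 to 121). Their mean responses were -0.01, -0.04, 0.20 and -0.28, with 95% intervals of -0.21 to 0.20, -0.24 to 0.17, 0.00 to 0.40 and -0.58 to 0.02. The cyclins Ccna2 (85.7 to 92.5) and Ccnb2 (81.7 to 90.0) and the checkpoint kinase Bub1 (86.1 to 94.0) were below background by the rule used, so a change in them was not detectable here.

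Of the CDK inhibitors, Cdkn1a, which encodes p21, had 722 and 757 in unstimulated WT, 989 and 1031 in WT with IL-4, 559 and 570 in unstimulated KO, and 838 and 720 in KO with IL-4. IL-4 arrays lay above unstimulated arrays within each genotype, and KO lay below WT within each condition. It rose with IL-4 in WT (0.49 ± 0.10, adjusted p = 0.00508, ratio 1.37) and in KO (0.51 ± 0.10, adjusted p = 0.00325, ratio 1.38). Its 2 other probes gave 0.30 and 0.31 in WT and 0.43 and 0.50 in KO. Cdkn1b, which encodes p27, had 92.3 to 102 and a mean response of -0.07 (95% interval -0.32 to 0.19).

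**Figure D3:**
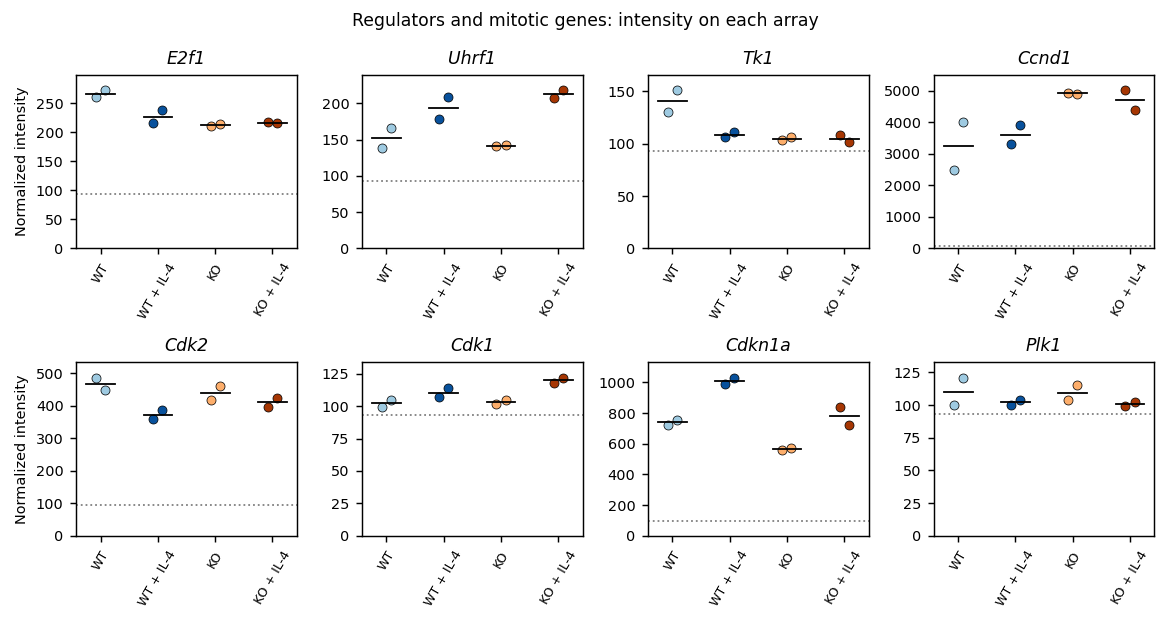
Normalized intensity (y axis, linear, from 0) of 8 members on each array, by group. Points are arrays, bars are group means of 2 arrays, and the dotted line is the background limit. E2f1 and Tk1 were highest in unstimulated WT, Ccnd1 was higher and Cdkn1a lower in KO, and Uhrf1 and Cdkn1a were higher with IL-4 in both genotypes.

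Between the genotypes, 1 of 33 members was higher in unstimulated KO than in unstimulated WT (3.03%, against 2.65% of all genes tested) and 3 were lower (9.09%, against 2.65%). The higher one was Ccnd1, cyclin D1, with 2494 and 4019 in unstimulated WT, 3305 and 3917 in WT with IL-4, 4924 and 4914 in unstimulated KO, and 5017 and 4391 in KO with IL-4. All KO arrays lay above all WT arrays, and the WT unstimulated duplicates were far apart. The difference was 0.65 ± 0.17 without IL-4 (adjusted p = 0.0411, ratio 1.51) and 0.39 ± 0.17 with IL-4 (adjusted p = 0.26), and both other probes gave values above 0 (0.64 and 0.82 without IL-4). The call ended without WT unstimulated array 1 (0.30, adjusted p = 0.307), KO unstimulated array 1 (0.65, adjusted p = 0.164) or KO unstimulated array 2 (0.65, adjusted p = 0.175). It also ended with robust eBayes (0.65, adjusted p = 0.217), with no variance trend (0.65, adjusted p = 0.087) and with cyclic loess (0.63, adjusted p = 0.0508).

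The lower ones were Tk1, E2f1 and Cdkn1a, and of these only the call of Tk1 held in each fit without 1 of the 4 unstimulated arrays. Decreases over all genes in this comparison were also fewer in each of those fits than in the full fit. For E2f1 the unstimulated difference was -0.45 ± 0.11 (adjusted p = 0.0354, ratio 0.796), and the call ended without any 1 of the 4 unstimulated arrays (-0.49 to -0.41, adjusted p = 0.0944 to 0.182). For Cdkn1a it was -0.43 ± 0.10 (adjusted p = 0.025, ratio 0.763), which also ended without any 1 of those 4 (-0.47 to -0.40, adjusted p = 0.0744 to 0.146).

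With IL-4, 3 members were higher in KO than in WT (9.09%, against 2.45%) and 1 was lower (3.03%, against 2.68%). All 3 were ring subunits: Mcm6 (0.52 ± 0.14, adjusted p = 0.0449, ratio 1.34), Mcm4 (0.45 ± 0.10, adjusted p = 0.0134, ratio 1.33) and Mcm2 (0.45 ± 0.12, adjusted p = 0.0482, ratio 1.24). All 3 calls ended without any 1 of the 4 IL-4 arrays, and those of Mcm2 and Mcm6 also without either KO unstimulated array. Such calls over all genes were also fewer in each of these fits than in the full fit. Across the lost calls the values were 0.39 to 0.65 for Mcm6 (adjusted p = 0.0547 to 0.276), 0.43 to 0.47 for Mcm4 (0.0584 to 0.121) and 0.36 to 0.53 for Mcm2 (0.0545 to 0.332). Mcm5 gave 0.34 ± 0.17 (adjusted p = 0.331). The T cell genes Cd3d and Cd3e, and the macrophage genes Vsig4, Gata6 and Selp, were higher in KO in the same comparison, and their part in these differences was not tested. Without IL-4, the genotype differences of Mcm2, Mcm4, Mcm5 and Mcm6 were 0.08, 0.07, 0.01 and 0.48, with an adjusted p of 0.0632 for Mcm6. The other bright probes of Mcm6 gave 0.27 and 0.18 without IL-4, and 0.54 and 0.91 with it. Mcm6 and Mcm3 lie on chromosome 1, as does Fcer1g, at 128 and 378 tested genes from it in the order of genes. The lower member was Cdkn1a (-0.41 ± 0.10, adjusted p = 0.0356, ratio 0.771), a call that ended without WT IL-4 array 1 (-0.44, adjusted p = 0.1), WT IL-4 array 2 (-0.38, adjusted p = 0.217) or KO IL-4 array 2 (-0.29, adjusted p = 0.339).

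**Figure D4:**
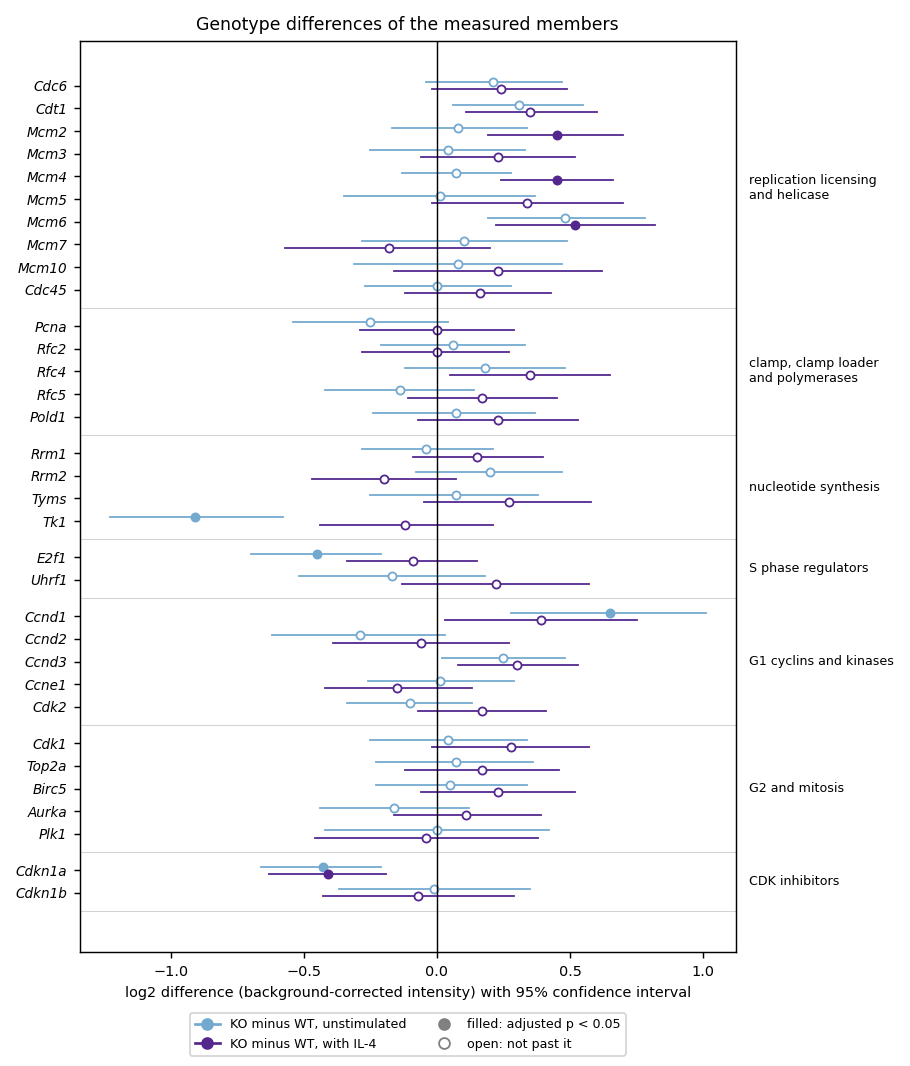
Genotype differences (KO minus WT) of each tested member without and with IL-4, as log2 differences of background-corrected intensity (x axis) with 95% confidence intervals, by role. Filled points have an adjusted p under 0.05: Tk1, E2f1, Ccnd1 and Cdkn1a without IL-4, and Mcm2, Mcm4, Mcm6 and Cdkn1a with it.

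The IL-4 response was larger in KO than in WT for many members by value, but no member passed the test of that difference. In the limma fit 0 of 33 had a larger or a smaller response in KO (against 0.0409% and 0.0817% of all genes), and at an unadjusted p under 0.05 there were 3 larger and 1 smaller, beside 643 of 9786 genes in either direction. The difference between the responses was above 0 for 26 of 33 members, beside 51.6% of all genes, and its median was 0.17, beside 0.01. Without WT unstimulated array 2 the median over the members was 0.08. The responses share a group of arrays with each genotype difference, so these are one set of values seen from different sides. Mcm2 differed by 0.36 ± 0.17 (adjusted p = 0.764), Mcm4 by 0.38 ± 0.14 (adjusted p = 0.648), Uhrf1 by 0.39 ± 0.23 (adjusted p = 0.831) and Mcm6 by 0.04 ± 0.19 (adjusted p = 0.981). The other bright probes of Mcm6 gave 0.26 and 0.73, so its value depends on the probe. Tk1 had the largest value, 0.79 ± 0.21 (95% interval 0.33 to 1.25, adjusted p = 0.354). The larger number of increases in KO than in WT is thus not shown to be a difference between the genotypes.

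Other genes of the same pathways were read from 5 further lists. Of 31 other replication genes tested, 8 rose in the mean IL-4 response and 1 fell, which is 25.8% and 3.23%, against 13.5% and 15.7% of all genes. In WT 1 rose (3.23%, against 7.87%) and in KO 7 (22.6%, against 9.45%). The leading ones were Pold2, a polymerase delta subunit (229 and 234, then 307 and 300 in WT; 222 and 210, then 304 and 324 in KO; 0.62 ± 0.08, adjusted p = 4.13e-05), and Orc6, of the origin recognition complex (0.45 ± 0.08, adjusted p = 0.000792). The gene that fell was Lig1, the ligase that joins Okazaki fragments (-0.31 ± 0.10, adjusted p = 0.0323).

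Of 22 other nucleotide synthesis genes, 13 rose in the mean response (59.1%, against 13.5% of all genes) and 2 fell (9.09%, against 15.7%). Their median was 0.44, beside -0.02 over all genes. In WT 10 rose (45.5%, against 7.87%) and in KO 13 (59.1%, against 9.45%). Dctd, the dCMP deaminase that feeds thymidylate synthesis, had 126 and 134 in unstimulated WT, 291 and 256 in WT with IL-4, 130 and 134 in unstimulated KO, and 300 and 330 in KO with IL-4. No unstimulated array came near an IL-4 array, and the mean response was 1.79 ± 0.09 (adjusted p = 1.14e-08). Prps1, which makes the ribose phosphate precursor of all nucleotides, rose by 1.26 ± 0.10 (adjusted p = 8.69e-07). The genes that fell were Mthfd2, a mitochondrial folate enzyme (-0.27 ± 0.09, adjusted p = 0.0264), and Rrm2b, the alternative small subunit of ribonucleotide reductase (-0.24 ± 0.08, adjusted p = 0.0465).

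Of 43 other mitosis genes, 17 were below background and 21 were tested, of which 2 rose (9.52%, against 13.5% of all genes) and 1 fell (4.76%, against 15.7%) in the mean response. Ncaph, of the condensin complex, rose by 0.41 ± 0.10 (adjusted p = 0.00598) and Cdca8, of the chromosomal passenger complex, by 0.28 ± 0.10 (adjusted p = 0.0428), while Cenpa, the centromeric histone, fell by 0.35 on the log2 scale (adjusted p = 0.00388).

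Of 26 other regulators of G1 and of entry into S phase, 5 rose (19.2%, against 13.5% of all genes) and 8 fell (30.8%, against 15.7%) in the mean response. Myc, a growth-promoting transcription factor, lay near the background limit without IL-4. It had 98.2 and 109 in unstimulated WT, 134 and 134 in WT with IL-4, 103 and 107 in unstimulated KO, and 131 and 132 in KO with IL-4. Its mean response after background correction was 0.80 ± 0.10 (adjusted p = 4.89e-05). Tfdp1, the DNA-binding partner of E2F factors, rose by 0.44 ± 0.08 (adjusted p = 0.000768). The largest decreases were those of Cdkn2b, which encodes the CDK4 and CDK6 inhibitor p15 (-0.81 ± 0.09, adjusted p = 1.58e-05), and Ccng2, an atypical cyclin linked to cell cycle arrest (-0.79 ± 0.10, adjusted p = 4.17e-05).

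**Figure D5:**
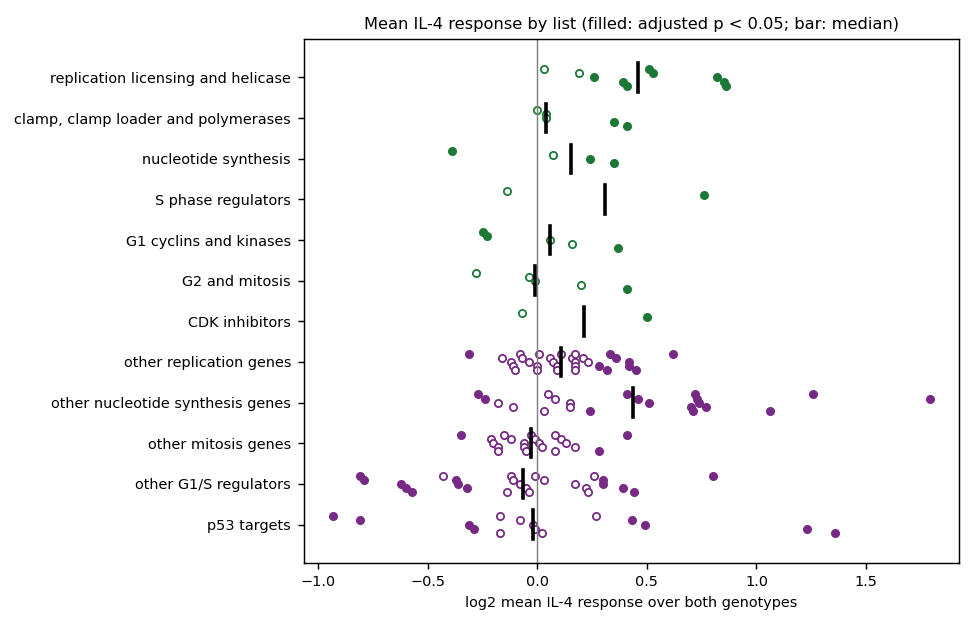
The mean IL-4 response over both genotypes (x axis, log2) of each tested gene, by member role (green) and by further list (purple). Filled points have an adjusted p under 0.05 and bars are list medians: 0.46 for licensing and helicase genes, 0.44 for other nucleotide synthesis genes and -0.01 for the G2 and mitosis members.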

How the data were processed

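The authors deposited 1 normalized intensity per probe and array, on a linear scale, and GenomeStudio is named per the submitters' processing notes, with no version given. Sorted, the 8 columns differ by at most 0.57 units, so the table was read as quantile-normalized, and its lowest value is 78.4, so background had not been subtracted. A non-normalized table (16 columns of signals and detection p-values) was not used, because its headings match no sample label. The planned detection p was therefore replaced by a limit per array, the mode of the low values plus 1.645 times the SD below it, which 53.7% to 54.4% of 25697 probes passed. Of these probes, 23978 have 1 gene symbol in the platform annotation, 0 have several and 1719 are unnamed here, and 23962 matched RefSeq (GRCm38.p6) by Entrez ID, with 0 symbols changed.

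Background was corrected with normexp (saddle, offset 16), values were taken to log2, and the 14326 probes that exceeded the limit on both arrays of 1 or more groups were kept. The brightest probe stood for each gene (9786 genes). A model of 4 group means over all 8 arrays was fitted with limma 3.58.1 in R 4.3.3 (eBayes with a variance trend, 4 residual and 9.25 prior degrees of freedom), with Benjamini-Hochberg adjustment over all genes and a threshold of 0.05. The script was tested on simulated data. With 2 arrays a group, their number limits the precision, and an exact permutation test of 1 gene could not go below p = 0.333. The 4 groups share replicate numbers, and deviations of same-numbered arrays correlated at -0.09 to 0.23, so the numbers were not taken as pairs.

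Members past the threshold in any comparison are named with their value on every array, and the others with their range. Of each further list, the rule takes the 2 largest increases and decreases per comparison, of which the text prints those of the mean response. Members and lists were chosen with earlier results of these data known, and the STAT6 motif was added after values were seen. Alternatives were no background correction, an offset of 50, no filter, a filter on all 8 arrays, the mean of a gene's probes, cyclic loess, a robust fit, no variance trend, replicate blocks and leaving out each array. Figures were drawn with matplotlib 3.10.9.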

Additional observations from a re-analysis of the deposited data

How the results depend on the processing

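Of 49 member calls over the 6 comparisons, 20 held under all 18 alternatives, among them the IL-4 increases of Mcm2, Mcm6 and Cdkn1a in both genotypes and of Mcm4, Mcm5 and Uhrf1 in KO, and no call changed direction. For the settings below the cause of each change was not tested. With the mean of each gene's probes, 0 members fell in WT, 0 fell in the mean response, and 0 were lower in KO with IL-4. Over all genes these counts were 793, 1495 and 235, in place of 849, 1540 and 262. With cyclic loess, 0 members were higher in unstimulated KO and 1 was higher in KO with IL-4. Over all genes these counts were 235 and 217, in place of 259 and 240. With no variance trend, 0 were higher in unstimulated KO and 0 were lower in KO with IL-4. Over all genes these counts were 205 and 227, in place of 259 and 262. The replicate block moved no count by over 1.5 times (7 increases in WT and 13 in KO). With a replicate block within genotype, 3 members were higher in unstimulated KO, 5 were higher and 0 lower in KO with IL-4, and 1 (Tk1, 0.79, adjusted p = 0.0444) had a larger IL-4 response in KO. Same-numbered arrays correlated at 0.16 within WT and 0.23 within KO, and at -0.09 to 0.01 between genotypes. Leaving out each array gave 3 to 7 increases and 1 to 2 decreases in WT, 6 to 12 increases in KO, and 0 to 3 decreases in the mean response. It gave 0 to 1 members higher and 1 to 3 lower in unstimulated KO, and 0 to 2 higher and 0 to 1 lower in KO with IL-4. An array left alone in its group was assumed to vary like the others. In each of these fits, IL-4 increases over all genes were fewer than in the full fit as well. Genotype calls over all genes, higher and lower, were fewer in each fit that left out an array of the groups compared. Without background correction, the median member response was 0.10 in both genotypes, in place of 0.24 and 0.27. Many mitotic and licensing probes lay near the background limit, where the size of a log2 difference depends on the background correction.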

Other observations

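A list of 20 genes linked to p53 was read in the mean IL-4 response: of 15 tested, 4 rose (26.7%, against 13.5% of all genes) and 4 fell (26.7%, against 15.7%). The list includes Trp53 itself, so it is not a list of p53 targets alone, and it leaves out Cdkn1a, which is among the members. Whether p53 acted on these genes was not tested. Plk2, a Polo-like kinase, had 140 and 131 in unstimulated WT, 229 and 248 in WT with IL-4, 131 and 130 in unstimulated KO, and 248 and 230 in KO with IL-4 (mean response 1.36 ± 0.09, limma adjusted p = 1.08e-07). Gadd45g, a stress-response gene, rose by 1.23 ± 0.11 (adjusted p = 1.59e-06). Gadd45a, another of that family, fell (-0.93 ± 0.09, adjusted p = 5.66e-06), as did Trp53inp1 (-0.81 ± 0.12, adjusted p = 0.000149).

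Gadd45a also differed between the genotypes, with 866 and 899 in unstimulated WT, 436 and 558 in WT with IL-4, 360 and 328 in unstimulated KO, and 210 and 215 in KO with IL-4. The KO arrays lay below all WT arrays. The genotype difference was -1.55 ± 0.13 without IL-4 (adjusted p = 1.16e-05) and -1.54 ± 0.13 with it (adjusted p = 6.96e-06). Of the 15, 1 was higher (6.67%, against 2.65% of all genes) and 2 were lower (13.3%, against 2.65%) in unstimulated KO. In KO with IL-4, 2 were lower (13.3%, against 2.68%) and 0 higher (against 2.45%). The other lower gene was Gadd45b (-0.58 ± 0.16, adjusted p = 0.0465, and -0.77 ± 0.16, adjusted p = 0.0105). The higher one was Sesn1, a stress-induced gene, with 457 and 470 in unstimulated WT and 651 and 759 in unstimulated KO (0.68 ± 0.12, adjusted p = 0.00398).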
